A study of Saccharomyces cerevisiae with 4 samples.

Results

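The genes described here are 10 zinc genes of the yeast Saccharomyces cerevisiae, taken by systematic name from a table of ribosome-protected fragments that lists 6600 coding sequences. All 10 were in the table, and all 10 passed the filter on low counts, as did 5233 coding sequences in all. They encode the zinc-sensing activator Zap1, the zinc transporters Zrt1, Zrt2, Zrt3, Zrc1 and Cot1, the surface protein Zps1, and the membrane proteins Izh1, Izh2 and Izh4.

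The 2 strains compared were of the 74D-694 background, with 2 libraries each. In the mutant, the frameshifted OAZ1 gene gave way to a copy whose reading frame is continuous, and the wild type (WT) kept the natural gene. Both were grown in synthetic medium to mid-exponential phase and treated with 50 µg/mL cycloheximide, which holds ribosomes on mRNA. OAZ1 encodes antizyme, the protein that sends ornithine decarboxylase to the proteasome. The labels do not say whether the libraries of a strain came from separate cultures or clones, so a p-value measures only the spread between these libraries, which may be technical. A ribosome count cannot be split here into mRNA level and ribosomes per mRNA, nor can fewer expressing cells be told apart from fewer fragments per cell.

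Zinc is a cofactor of many enzymes and is toxic in excess, so yeast adjusts how much it takes up and stores. When zinc runs short, Zap1 binds the zinc-responsive element in front of its target genes and activates them, its own gene among them. Zrt1 and Zrt2 bring zinc in across the plasma membrane with high and low affinity, Zrc1 and Cot1 move zinc into the vacuole, and Zrt3 lets it out again.

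The element was looked for in the 500 bases before each start codon of the reference genome, because Zap1 binding is what most of these genes are known to share. The letters searched were ACCTTNAAGGT, which read the same on both strands. An exact match stood before ZRT1 alone among the 10 genes, and before 9 of 6006 coding sequences of the genome, or 0.15%. With 1 mismatch allowed, 7 of the 10 genes held a match, against 1.96% of all upstream windows. Most of the 10 genes were known for Zap1 binding beforehand, so this contrast describes the set and is no test. The stretches from 10 bases before the first match to 10 bases after the last are given below in the direction of the gene, with the matches in capitals and all other bases in lower case.
ZAP1: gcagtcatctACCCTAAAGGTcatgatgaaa
ZRT1: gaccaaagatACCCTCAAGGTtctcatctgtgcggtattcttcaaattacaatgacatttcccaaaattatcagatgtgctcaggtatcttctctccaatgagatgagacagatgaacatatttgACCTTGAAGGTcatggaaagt
ZRT2: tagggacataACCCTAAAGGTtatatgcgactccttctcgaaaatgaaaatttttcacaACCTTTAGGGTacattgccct
ZRT3: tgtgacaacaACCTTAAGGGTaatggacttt
ZPS1: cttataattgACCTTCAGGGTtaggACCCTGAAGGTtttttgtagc
ZRC1: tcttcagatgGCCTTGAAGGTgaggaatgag
IZH1: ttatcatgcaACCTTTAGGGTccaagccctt

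The coding sequences carry the systematic names YJL056C (ZAP1), YGL255W (ZRT1), YLR130C (ZRT2), YKL175W (ZRT3), YMR243C (ZRC1), YOR316C (COT1), YOL154W (ZPS1), YDR492W (IZH1), YOL002C (IZH2) and YOL101C (IZH4). Each is a single coding part with no intron. They are annotated at chrX:330431-333073, chrVII:20978-22108, chrXII:402794-404062, chrXI:118793-120304, chrXIII:754838-756166, chrXV:906236-907555, chrXV:34658-35407, chrIV:1434924-1435874, chrXV:323411-324364 and chrXV:126982-127920, in that order of genes.

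The printed stretches lie at chrX:333197-333227 on the minus strand for ZAP1, chrVII:20649-20794 on the plus strand for ZRT1, chrXII:404304-404383 on the minus strand for ZRT2, and chrXI:118628-118658 on the plus strand for ZRT3. Those of ZPS1, ZRC1 and IZH1 lie at chrXV:34319-34364 on the plus strand, chrXIII:756320-756350 on the minus strand and chrIV:1434497-1434527 on the plus strand. Coordinates are those of the RefSeq copy of sacCer3, the build named in the submitters' processing notes. None of the stretches overlaps an annotated coding sequence. The genome is that of the reference strain, so the 74D-694 strains may differ from it.

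ZRT1, ZRT2 and ZPS1 held 2 matches each, and the other 4 genes held 1 each. Counting positions from 1 at the 5′ end of the element, 4 of the 10 matches carried the difference T4C and 4 carried A8G. These 2 positions mirror each other in the palindrome. Over all upstream windows, 11 of 122 matches (9.02%) carried T4C or A8G, and 8 of those 11 stood before zinc genes of this set. This count likewise describes a set known for Zap1 binding. ZRC1 differed by A1G. The 2 matches before ZPS1 were 4 bases apart, and those of ZRT1 and ZRT2 were farther apart. Before COT1, IZH2 and IZH4 no window came within 2 mismatches of the element. A match is a description of letters and does not show that Zap1 was bound in these cells.

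**Figure D1:**
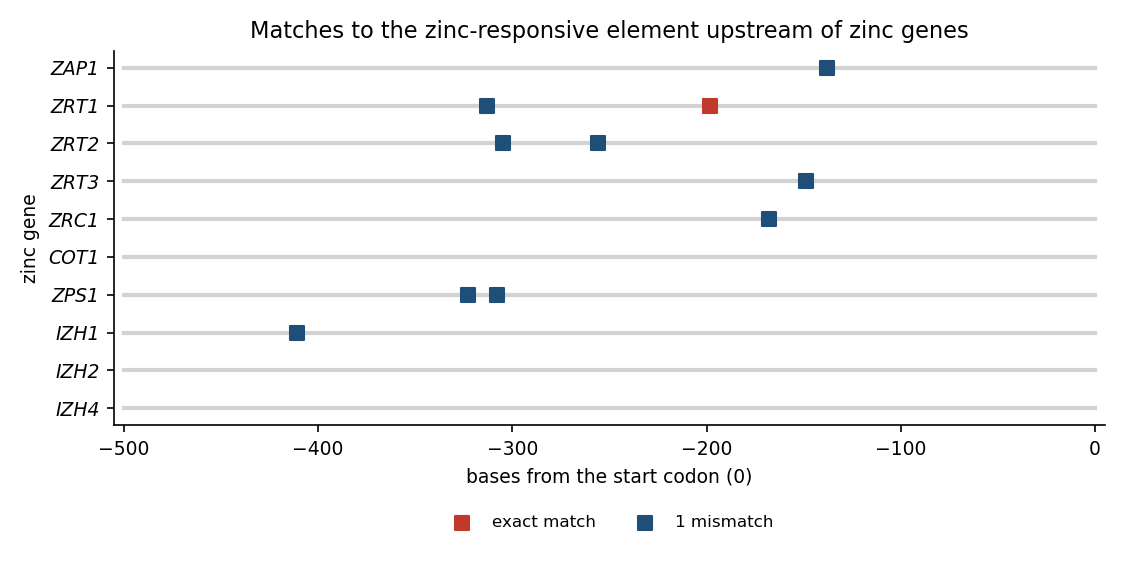
The x axis gives the distance in bases from the start codon, with each of the 10 zinc genes on a row of its own, and squares mark matches to the zinc-responsive element. The exact match lies 193 bases before the ZRT1 start codon, and the matches with 1 mismatch lie between 133 bases (ZAP1) and 406 bases (IZH1) before theirs.

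The proteins were split by a hydropathy rule, which reads the sequence and does not say where a protein resides. The surface protein Zps1 falls on the same side of it as Zap1. Of the 10, 8 hold at least 1 hydrophobic segment, here a window of 19 residues with a mean Kyte-Doolittle hydropathy of at least 1.6, and Zap1 and Zps1 hold none. In the whole annotation 30.4% of proteins hold one. The segments numbered 4 to 7 per protein in the transporters and the Izh proteins. Histidine, a common zinc ligand, made up 7.05% of Zap1, 6.36% of Zrt3, 5.69% of Cot1 and 5.66% of Zrc1, against a median of 2.04% over 5898 proteins. Zrt1 at 1.86% and Zps1 at 2.41% lay near that median. Zrc1 and Cot1 were identical at 62.7% of aligned positions, Zrt1 and Zrt2 at 46.5%, and Izh1 and Izh2 at 43.1%. No window of 28 bases of any of the 10 coding sequences occurred in another coding sequence, so fragments of that length that match a member exactly do not match a second gene.

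Depth differed between the libraries. The totals were 7571371 and 2826895 counts in mutant replicates 1 and 2, and 29671498 and 10202557 counts in WT replicates 1 and 2. OAZ1 itself had 160 and 49 counts in mutant, or 20.5 and 18.1 CPM, against 379 and 110 counts in WT, or 12.7 and 10.7 CPM (CPM being counts scaled to a library of 1000000, after TMM normalization). The mutant libraries were both above the WT libraries, though not past the adjusted threshold (log2 fold change 0.73, adjusted p = 0.755, edgeR). WT replicate 1 stood apart from the rest. Genes for proteins with a hydrophobic segment took 17.2% and 16.9% of counts in mutant, and 20.7% and 16.6% in WT replicates 1 and 2. Of 10 genes of translocation into, and folding in, the endoplasmic reticulum, 9 had negative fold changes. So did 2698 of all 5233 tested genes and 1104 of the 1503 with a hydrophobic segment, which 8 of the 10 hold. The median of the 10 was -0.88 on the log2 scale, and -0.29 without WT replicate 1. Beside it, the median of tested genes with a hydrophobic segment was -0.23, and -0.02 without WT replicate 1. Markers of haploid a cells summed to 381 and 345 CPM in mutant and 725 and 338 CPM in WT, as plain shares of the total. Those of alpha cells summed to 4.75 and 3.18 CPM in mutant, with 1 of 4 genes at 0 in each library, and to 8.43 and 5.49 CPM in WT.

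The 10 genes together held 3186 and 2994 CPM in mutant and 4806 and 3786 CPM in WT, as plain shares of the total. ZPS1 and ZRT1 made up most of this. In mutant they took 87.1% (95% Wilson interval 86.7% to 87.5%) and 86.2% (85.5% to 86.9%) of the zinc counts, and in WT 86.6% (86.4% to 86.8%) and 88.0% (87.7% to 88.4%). Intervals cover counting error only.

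Per kilobase of coding sequence, the level spanned about 3 orders of magnitude. In mutant, ZPS1 averaged 2600 CPM per kb and ZRT1 661 CPM per kb. ZRC1, ZAP1 and IZH1 followed at 62.0, 60.1 and 55.3 CPM per kb, and ZRT3 came next at 45.8 CPM per kb. The ZAP1 values overlapped those of ZRC1 and of IZH1, while ZRC1 lay above IZH1 in both libraries. IZH2 stood at 20.9 CPM per kb, ZRT2 and COT1 overlapped at 12.0 and 11.4 CPM per kb, and IZH4 was lowest at 2.35 CPM per kb. In WT the order began alike, with ZPS1 at 3414 and ZRT1 at 1023 CPM per kb. There ZRT3, ZRC1, IZH1 and ZAP1 (93.3, 85.6, 61.1 and 59.6 CPM per kb) overlapped, as did COT1, ZRT2 and IZH2 (20.4, 19.7 and 19.4 CPM per kb), and IZH4 was at 3.18 CPM per kb. Among 5210 tested genes with a known coding length, ZPS1 ranked 87 and 92 in mutant and 54 and 66 in WT by this level. ZRT1 ranked 308 and 331 in mutant, against 160 and 281 in WT.

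**Figure D2:**
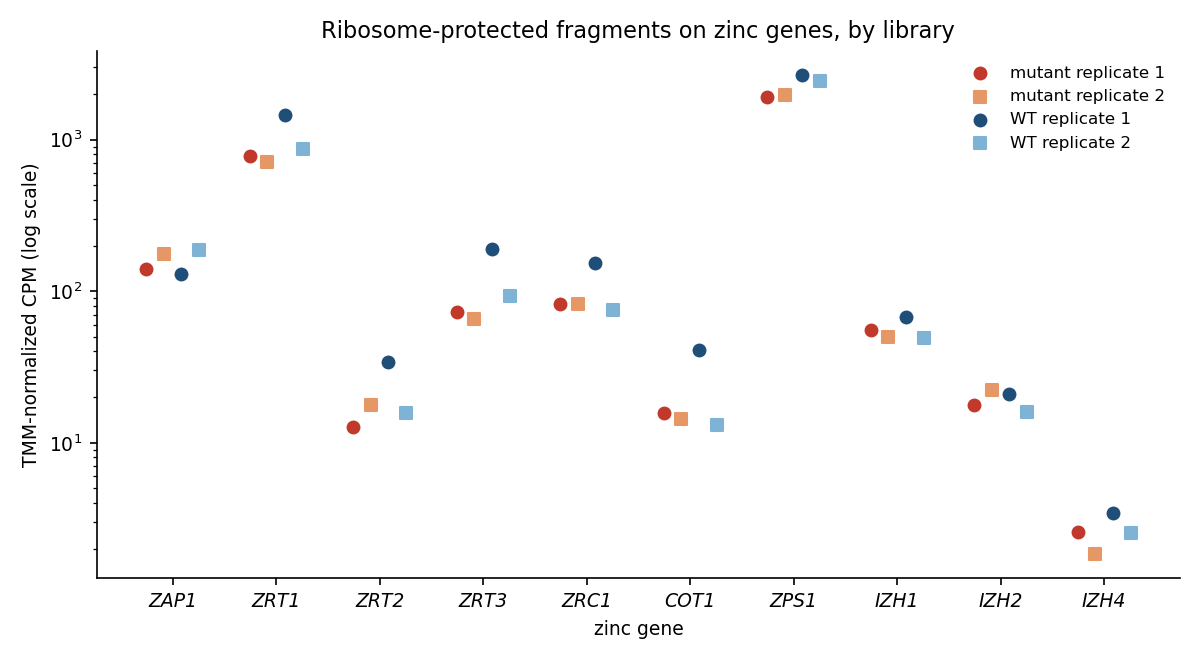
Each point is 1 library, the y axis is TMM-normalized CPM on a log scale, and the genes run along the x axis, with the 2 mutant libraries left of the 2 WT libraries. ZPS1, ZRT1 and ZRT3 lie lower in the mutant pair than in the WT pair, while ZRC1 and COT1 stand out in WT replicate 1 alone.

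None of the 10 genes passed the adjusted threshold of 0.05 in edgeR's quasi-likelihood test, nor did any of the 5233 genes tested, so the background share was 0% in either direction. DESeq2 called none of the 10 genes and 0.0764% of all genes lower. The 10 genes were chosen with earlier results of these data known, so the counts that follow are a description. At an unadjusted p under 0.05, edgeR placed 3 of the 10 genes lower in mutant, namely ZRT3, ZPS1 and ZRT1, and none higher, against 3.73% of all genes lower and 1.72% higher. The same 3 genes were those whose groups did not overlap, all lower in mutant, against 17.9% of all genes. Of the 8 zinc genes with a hydrophobic segment, 2 were lower without overlap, against 28.7% of all genes with one. No zinc gene was higher without overlap, against 19.1% of all genes. The median log2 fold change over the 10 genes was -0.43, with 8 below 0, beside -0.01 over all tested genes. Over the 8 with a hydrophobic segment it was -0.55, beside -0.23 over all tested genes with one. Without WT replicate 1 the median over the 10 genes was -0.11, with 6 of 10 below 0, and that over the 8 was 0.003.

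ZAP1, the zinc-sensing activator, showed no difference between the strains beyond the spread of its libraries. Its levels were 141 and 177 CPM in mutant replicates 1 and 2, against 129 and 186 CPM in WT replicates 1 and 2. The mutant values lay inside the WT range. The log2 fold change was 0.01 with a 95% interval from -0.55 to 0.58 (adjusted p = 0.996, edgeR). Among the 10 genes, ZAP1 was the sole one lower in WT replicate 1 than in WT replicate 2. On the log2 scale it was at -0.24 when WT replicate 1 was left out, at 0.29 when WT replicate 2 was, and at -0.16 when mutant replicate 2 was.

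ZRT1, the high-affinity importer of the plasma membrane, was lower in both mutant libraries. It had 779 and 716 CPM in mutant, against 1450 and 865 CPM in WT. The WT libraries differed from each other by more than WT replicate 2 differed from mutant. The log2 fold change was -0.63 with a 95% interval from -1.25 to -0.01 (adjusted p = 0.755, edgeR). Leaving out WT replicate 1 gave -0.21. Leaving out WT replicate 2 gave -0.95, where the adjusted p was 1.63e-06 (edgeR), and 14.9% of all genes and 38.7% of genes with a hydrophobic segment were called lower.

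ZRT2, the low-affinity importer, was far less abundant. It had 12.7 and 17.8 CPM in mutant and 34.4 and 15.7 CPM in WT. The groups overlapped, with WT replicate 1 alone above the other libraries. The log2 fold change was -0.76 (95% interval -1.77 to 0.25, adjusted p = 0.755, edgeR), or -0.11 without WT replicate 1. Per kilobase, ZRT1 exceeded ZRT2 68.8-fold and 45.3-fold in the mutant libraries and 47.3-fold and 62.0-fold in the WT libraries, so the ratio overlapped between the strains.

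ZRT3, which releases zinc from the vacuole, had the most negative fold change of the 10 genes with all libraries. Its levels were 73.0 and 65.5 CPM in mutant, against 190 and 92.7 CPM in WT. Both mutant libraries lay below both WT libraries. The log2 fold change was -1.03 with a 95% interval from -1.86 to -0.19 (adjusted p = 0.755, edgeR). It was -0.41 without WT replicate 1 (unadjusted p = 0.0335, adjusted p = 0.653, edgeR), the single one of the 10 genes under 0.05 before adjustment in that fit, against 3.38% of all genes lower.

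ZRC1 and COT1, the vacuolar importers, overlapped between the strains, and WT replicate 1 held the highest value of each. ZRC1 had 82.0 and 82.9 CPM in mutant and 153 and 75.0 CPM in WT. COT1 had 15.7 and 14.4 CPM in mutant and 40.7 and 13.0 CPM in WT. For both genes the mutant libraries were close to each other and lay between the WT libraries. With all libraries the log2 fold changes were -0.47 for ZRC1 (95% interval -1.29 to 0.35) and -0.85 for COT1 (-2.12 to 0.43). Without WT replicate 1 they were 0.13 and 0.22, on the other side of 0. The ratio of ZRC1 to COT1 per kilobase was 5.20 and 5.70 in mutant, against 3.72 and 5.71 in WT.

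ZPS1 encodes a zinc-regulated protein of the cell surface that resembles the zinc-binding protein Pra1 of Candida albicans. It was lower in both mutant libraries, at 0.761 times its WT level (95% interval 0.598 to 0.970), and had the narrowest interval of the 10 genes. Counts were 14933 and 5361 in mutant and 80141 and 25107 in WT. These gave 1916 and 1983 CPM in mutant, against 2679 and 2442 CPM in WT. Means were 1950 ± 47.2 CPM in mutant and 2560 ± 167 CPM in WT (SD, n = 2 each), and the gap between the groups was wider than the spread within either. The log2 fold change was -0.39 with a 95% interval from -0.74 to -0.04 (unadjusted p = 0.0331, adjusted p = 0.755, edgeR). Leaving out 1 library at a time gave -0.46 to -0.33. With groups that do not overlap the sign could hardly change, so these fits do not test whether the direction rests on 1 library. Factors from genes with a hydrophobic segment moved the median of all genes to 0.18. With them the log2 fold change of ZPS1 was -0.20 (adjusted p = 0.878, edgeR).

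The IZH genes encode membrane proteins of the adiponectin receptor family that act in zinc homeostasis and lipid signalling. IZH1 had 55.2 and 49.9 CPM in mutant, against 67.2 and 49.1 CPM in WT. IZH2 had 17.7 and 22.2 CPM in mutant, against 21.1 and 15.95 CPM in WT. IZH4 had 20 and 5 counts in mutant and 103 and 26 counts in WT, or 2.57 and 1.85 CPM against 3.44 and 2.53 CPM. The groups overlapped for all 3 genes. Their log2 fold changes were -0.15 (95% interval -0.67 to 0.38), 0.08 (-0.52 to 0.69) and -0.39 (-1.34 to 0.56). For IZH4, with as few as 5 counts in a library, a mutant level as low as 0.395 times that of WT lies within the interval.

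**Figure D3:**
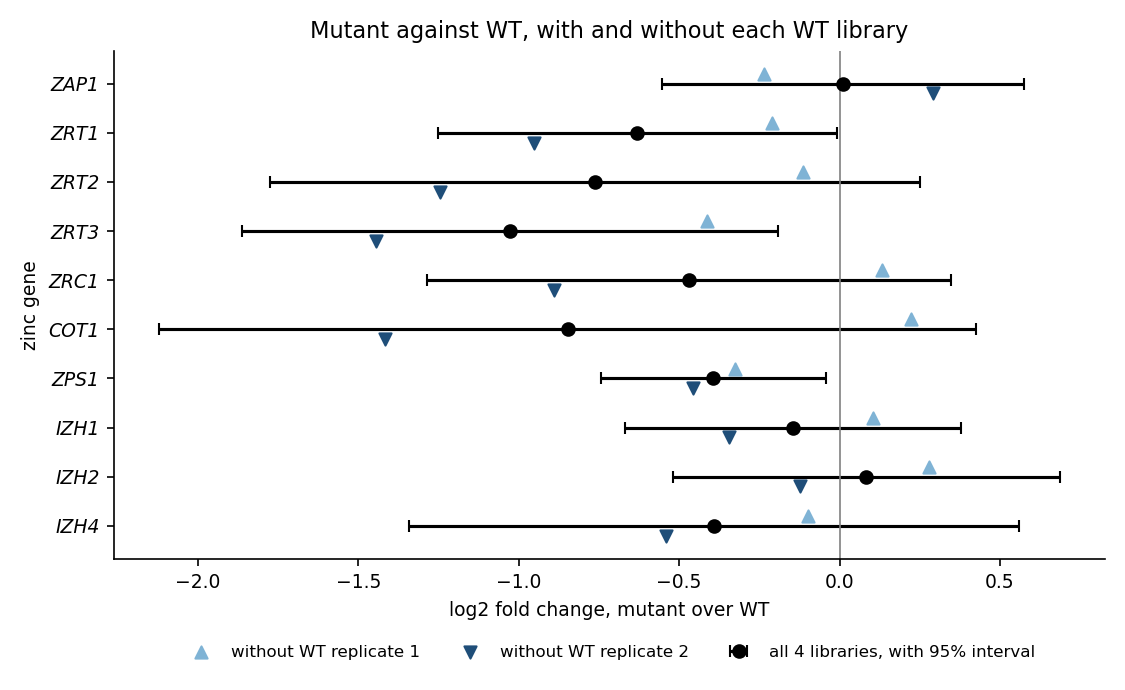
The x axis is the log2 fold change of mutant over WT and each row is a zinc gene. Black circles are the fit to all 4 libraries with 95% intervals, and triangles are fits without WT replicate 1 (pointing up) or without WT replicate 2 (pointing down). ZPS1 is placed almost alike by the 3 fits (-0.39, -0.33 and -0.46), while COT1 runs from -1.42 to 0.22.

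The 2 WT libraries differed most for membrane transporters among the zinc genes. On the log2 CPM scale, WT replicate 1 exceeded WT replicate 2 by a median of 0.88 over the 8 genes with a hydrophobic segment. The same median was 0.40 over 1503 tested genes with such a segment and -0.06 over 3707 without one. Single genes departed from these medians, as ADH1, with no segment, was apart by 1.15 and TSA1, with one, by -0.51 (both chosen after their values were seen). COT1 was farthest apart at 1.63, followed by ZRT2 at 1.13, ZRT3 at 1.03 and ZRC1 at 1.02. ZPS1, with no segment, was apart by 0.13, and ZAP1 by -0.52. The mutant libraries differed by a median of 0.12 over the same 8 genes. Whether this difference between the WT libraries accounts for the lower values in mutant was not tested.

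**Figure D4:**
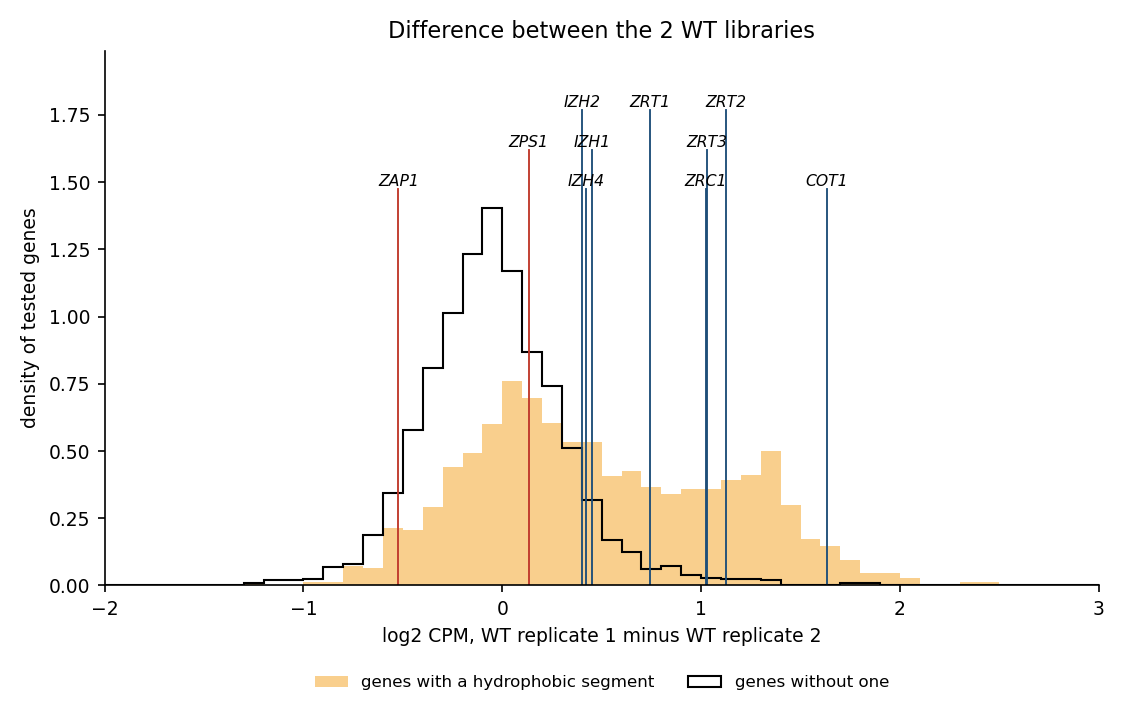
The x axis is the difference in log2 CPM between WT replicate 1 and WT replicate 2, and the y axis the density of tested genes with a hydrophobic segment (filled) and without one (outline). Vertical lines mark the zinc genes, in blue for the 8 with a segment, which lie between 0.40 and 1.63, and in red for ZAP1 and ZPS1 at -0.52 and 0.13.

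Without WT replicate 2, edgeR called 5 of the 10 genes lower at an adjusted p under 0.05, namely ZRT1, ZRT2, ZRT3, ZRC1 and COT1, against 14.9% of all genes and 38.7% of those with a hydrophobic segment. All 5 encode such a segment, and none of the 10 genes was called higher, against 4.35% of all genes. Without WT replicate 1 it called none of the 10 genes, against 0.42% of all genes called lower and 0.325% called higher. With a single WT library left, its spread was taken to equal that between the mutant libraries.

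At an unadjusted p under 0.05, 6 of the 10 genes were lower without WT replicate 2, against 18.2% of all genes. None was lower without mutant replicate 1 or 2, against 1.09% and 0.151% of all genes. With factors from genes with a hydrophobic segment 1 was lower, against 4.4% of all genes, and at the adjusted threshold none was called, against 0.268% of all genes lower and 0.0573% higher. Zinc genes lower in mutant with no overlap of the groups numbered 4 without mutant replicate 1, 4 without mutant replicate 2, 4 without WT replicate 1 and, with WT replicate 2 left out, 8. The shares of all genes were 36%, 28.9%, 33.6% and 39% in that order. Leaving out a library can only keep or raise such a count. ZRT1, ZRT3 and ZPS1, whose groups were apart with all libraries, are in each of these counts by construction.

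Other genes of zinc biology were taken from a list of 20 known Zap1 targets and zinc transport genes outside the 10. These 20 genes were chosen with earlier results of these data known, so their counts are a description. None passed the adjusted threshold with all libraries in edgeR, and DESeq2 called none. At an unadjusted p under 0.05, 3 of 20 were lower in mutant and none was higher, against 3.73% and 1.72% of all genes. The median log2 fold change was -0.18, with 14 below 0. Without WT replicate 2, edgeR called 7 of 20 lower and 1 higher at the adjusted threshold, against 14.9% and 4.35% of all genes, and 8 lower and 3 higher before adjustment, against 18.2% and 10% of all genes. Without WT replicate 1, none was called and 5 were lower before adjustment, against 3.38% of all genes, and without either mutant library none was lower at that level. The median was 0.06 without WT replicate 2, and -0.11, -0.09 and -0.20 without WT replicate 1, mutant replicate 1 and mutant replicate 2. The 3 genes lower with all libraries were MCD4, an enzyme of glycosylphosphatidylinositol anchor synthesis, FET4, a low-affinity metal importer, and DPP1, a vacuolar lipid phosphatase, and each encodes a hydrophobic segment.

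MCD4 had 34.4 and 32.2 CPM in mutant, against 98.0 and 47.4 CPM in WT, a log2 fold change of -1.13 (-0.50 without WT replicate 1). FET4 had 12.8 and 10.7 CPM in mutant, against 23.3 and 17.3 CPM in WT, a log2 fold change of -0.77 (-0.52 without WT replicate 1). DPP1 had 35.7 and 42.5 CPM in mutant, against 89.7 and 49.7 CPM in WT, a log2 fold change of -0.85 (-0.37 without WT replicate 1). For all 3 the mutant pair lay below the WT pair. Over the list of 20, 4 genes were lower in mutant without overlap, against 17.9% of all genes. Higher without overlap were 2, EKI1 and RAD27, against 19.1% of all genes. An exact match to the zinc-responsive element stood before MCD4, DPP1 had a match with 1 mismatch, and FET4 had neither. Elsewhere in the list of 20, an exact match stood before ZRG17, and matches with 1 mismatch stood before MSC2 and MNT2.

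MSC2 and ZRG17, whose products together carry zinc into the endoplasmic reticulum, overlapped between the strains. MSC2 had 10.8 and 7.40 CPM in mutant and 22.0 and 8.46 CPM in WT. ZRG17, which also has an exact match to the element, had 18.0 and 24.8 CPM in mutant and 30.2 and 19.2 CPM in WT. With all libraries the log2 fold changes were -0.72 for MSC2 and -0.24 for ZRG17. Without WT replicate 1 both lay above 0, at 0.19 and 0.10, and without WT replicate 2 they were -1.18 and -0.56. IZH3, the fourth gene of the Izh family, had 27.98 and 29.2 CPM in mutant and 39.6 and 26.8 CPM in WT. EKI1, an ethanolamine kinase, CTT1, the cytosolic catalase, and RAD27, a flap endonuclease, had log2 fold changes of 0.43, -0.69 and 0.25, with adjusted p of 0.755, 0.755 and 0.761 in edgeR. With 1 library left out, EKI1 ran from 0.20 to 0.66 and RAD27 from 0.24 to 0.27. CTT1 was at -0.16 without WT replicate 1, -0.39 without mutant replicate 2, -1.10 without mutant replicate 1 and -1.05 without WT replicate 2, where it was called lower (adjusted p = 1.88e-07, edgeR).

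Zap1 is known to raise ADH4, an alcohol dehydrogenase gene next to ZRT1 on chromosome VII, when zinc is scarce, and to hold down ADH1 and ADH3 through transcripts made across their promoters. ADH4 had 3704 and 4312 CPM in mutant, inside the WT values of 3323 and 5239 CPM. ADH1 had 1339 and 1522 CPM in mutant, against 5657 and 2556 CPM in WT. It did not pass the adjusted threshold in the fit to all libraries (log2 fold change -1.52, adjusted p = 0.755, edgeR). Dropping WT replicate 1 moved ADH1 to -0.84, and dropping WT replicate 2 moved it to -1.98. Each of these fits rests on 1 WT library, so the effect size alone is given. Of the windows of 28 bases in ADH1, 19.5% occur in another coding sequence, and how the authors treated such reads is not given in the sources used here. ADH2, which shares the same portion of its windows, had 175 and 220.1 CPM in mutant, against 528 and 359 CPM in WT. It did not pass in the fit to all libraries either (log2 fold change -1.17, adjusted p = 0.755, edgeR). Dropping WT replicate 1 moved ADH2 to -0.87, and dropping WT replicate 2 moved it to -1.42. ADH3 had 161 and 180 CPM in mutant, against 400 and 257 CPM in WT, a log2 fold change of -0.95 (-0.59 without WT replicate 1). Per kilobase, ADH4 exceeded ADH1 2.52-fold and 2.58-fold in the mutant libraries, and the ratio was 0.535 and 1.87 in WT.

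A list of 7 zinc-requiring enzymes, which holds ADH1, ADH2 and ADH3, had no gene past the adjusted threshold in edgeR with all libraries. At an unadjusted p under 0.05, 4 of 7 were lower, namely the 3 dehydrogenase genes and PHO8, the vacuolar alkaline phosphatase, and none was higher, against the same 3.73% and 1.72% of all genes. The list was chosen with earlier results of these data known, so this count describes it and is no test of it. That count was not the same in every fit with 1 library left out. The list's median log2 fold change was -0.95 with all libraries, -0.31 without WT replicate 1 and -1.23 without WT replicate 2. It was -0.86 without mutant replicate 1 and -1.02 without mutant replicate 2. DESeq2 called ADH1 and ADH2 lower, against 0.0764% of all genes. PHO8 had 40.8 and 45.9 CPM in mutant, against 115 and 52.3 CPM in WT, with a log2 fold change of -0.96 (-0.29 without WT replicate 1). FBA1, the aldolase, and MET6, the methionine synthase, had log2 fold changes of -0.18 and 0.08.

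The genes whose 4 library values lay nearest to those of ZRT1, ZPS1 and ZAP1 were found by Euclidean distance between log2 CPM values centred on each gene's mean, among 4602 other genes whose counts averaged 100 or more, which leaves out IZH4. With 4 libraries this is a description only. For ZRT1 they were MMT1, ATP25 and MSD1, at distances of 0.03, 0.04 and 0.06. For ZPS1 they were BDH1, MGR1 and RPL26B, at 0.03, 0.04 and 0.06, and for ZAP1 GEP7, SCS22 and TFA2, at 0.07, 0.09 and 0.09. The zinc gene nearest to ZRT1 was ZRC1, at 0.30 and rank 184, and the one nearest to ZPS1 was IZH1, at 0.37 and rank 772. ZAP1 lay no nearer than 0.66 to any other zinc gene compared.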

How the data were processed

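The authors deposited raw counts, whole numbers for each coding sequence and library, in 1 table. Per the submitters' processing notes, Bowtie2, DESeq2 and sacCer3 were used. Not given in the sources used here are versions, the counting tool, the strand setting and the handling of reads with several matches. Because header and body are spaced differently by tabs, column names were matched to the non-empty fields in sequence. Of 6600 rows, 5917 matched RefSeq by systematic name.

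The test was that of edgeR 4.0.16 under R 4.3.3 (quasi-likelihood, two-sided, TMM, filterByExpr with minimum count 10 and minimum total 15, Benjamini-Hochberg at 0.05 over 5233 genes), which was tested on simulated data. The 95% intervals of fold changes come from that fit. Alternatives were RLE factors, DESeq2 1.42.0, no filter, thinning to the smallest total, a replicate block, factors from genes with a hydrophobic segment, and each library left out. The limit for a gene at 0 is 3 counts, which is 1.06 CPM in the shallowest library and 0.101 CPM in the deepest. Counting intervals take reads as independent, which amplified reads are not.

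The zinc genes and lists were chosen with earlier results of these data known. Beside the 10 genes and OAZ1, the rule named up to 6 genes per list with the smallest p, and ADH1, ADH3, ADH4, MSC2, ZRG17 and IZH3. Endoplasmic reticulum genes are given as a list. Lists were those of Zap1 targets, zinc-requiring enzymes, endoplasmic reticulum genes and mating type markers. Coding sequences, translations and upstream windows came from the RefSeq genome. Proteins were aligned globally with Biopython 1.88 (BLOSUM62).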

Additional observations from a re-analysis of the deposited data

How the results depend on the processing

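The number of genes past the adjusted threshold, 0 with all libraries in edgeR, was 4 by DESeq2 (4 lower), 39 without WT replicate 1 (17 higher, 22 lower), 1008 without WT replicate 2 (228 higher, 780 lower) and 17 with factors from genes with a hydrophobic segment (3 higher, 14 lower). Leaving out 1 library gave 0 to 1008 genes, 0 to 228 higher and 0 to 780 lower, and 0 to 5 zinc genes past that threshold. Zinc genes lower at an unadjusted p under 0.05 numbered 3 with all libraries, 0 to 6 with 1 library left out and 1 with factors from genes with a hydrophobic segment, which was ZRT3. Zinc genes lower without overlap of the groups numbered 3 with all libraries, and 4 to 8 with 1 library left out, where the count cannot fall. Counts of these last 2 kinds with a library left out were chosen after seeing the data.

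Fold changes of ZRT1, ZRT2, ZRT3, ZPS1 and IZH4 kept their sign under every alternative that gave a value. For ZRT1, ZRT3 and ZPS1, whose groups did not overlap, leaving out a library could hardly have changed it. With 1 library left out, those that crossed 0 ran from -0.24 to 0.29 (ZAP1), -0.89 to 0.13 (ZRC1), -1.42 to 0.22 (COT1), -0.34 to 0.11 (IZH1), -0.12 to 0.28 (IZH2), -1.18 to 0.19 (MSC2), -0.47 to 0.088 (IZH3), -0.56 to 0.10 (ZRG17) and -0.39 to 0.27 (ADH4). Factors from genes with a hydrophobic segment gave 0.070 for IZH1, 0.0015 for IZH3 and 0.056 for ADH4. Why these crossed 0 was not tested. The zinc genes' median level per kilobase was 59.0 CPM, and 52.5 to 60.2 CPM with 1 library left out. Among the 10 genes, 1 had an exact match to the zinc-responsive element, 7 had one with 1 mismatch allowed, 7 with 2 allowed, and 10 held the arm ACCTT, as did 65.6% of all windows. Deviations of same-numbered libraries correlated at 0.08 over 4603 genes. The labels do not say that the numbers pair libraries, and this correlation cannot settle it. The replicate block called 0 genes and gave a zinc gene median of -0.41. IZH4 was filtered out after thinning.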
